A study of Mus musculus with 30 samples.

Results

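The cells described here were 447 monocyte progenitors among 24693 bone marrow cells of a mouse single-cell RNA-seq data set. They were chosen by measured values. A cell had to hold at least 2 UMIs (unique molecular identifiers, 1 for each captured RNA molecule) of F13a1, at least 1 of Irf8 and at least 1 of Ly86. Its UMIs of the MHC class II genes H2-Aa, H2-Ab1 and H2-Eb1 together had to stay under 5 per 10000, and its Elane UMIs under 15 per 10000. At most 10% of its UMIs could be mitochondrial, a limit that kept 24396 cells. The 2 genotypes were Mx1-Cre; Mettl3 fl/fl, called Mettl3KO, and Mettl3 fl/fl without the transgene, called WT. Both groups carried the floxed alleles and were sampled 3 weeks after pIpC, a synthetic double-stranded RNA that switches on Mx1-Cre through the interferon response. Mx1-Cre acts in any cell that responds to interferon, so deletion is not limited to blood cells. Cells of the Lin-;c-Kit+ (LK) gate, which holds the committed myeloid, erythroid and megakaryocytic progenitors, were run on the 10x Chromium platform from 3 mice of each genotype, 1 library per mouse. No source used here states the mice's ages. The monocyte progenitors numbered 66, 69 and 84 in the Mettl3KO libraries 1 to 3, against 89, 67 and 72 in the WT libraries 1 to 3.

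Monocytes arise in the bone marrow from granulocyte and monocyte progenitors, and the transcription factor Irf8 directs this choice away from neutrophils. Committed progenitors switch on Ly86, a lipid-binding partner of a Toll-like receptor relative, and F13a1, the A subunit of a transglutaminase that cross-links fibrin. They then gain Csf1r, the receptor of the monocyte growth factor M-CSF, and Ccr2, the chemokine receptor by which monocytes leave the marrow. Mettl3 is the catalytic subunit of the complex that writes m6A, a methyl mark on adenosines of messenger RNA that affects its splicing and decay.

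The label of monocyte progenitors was checked against markers that the rule did not use. Values for the chosen cells and the rest come from the same cells that were selected, so they are a description without a test. Levels are CPM (counts per 1e6, here UMIs of a gene relative to all UMIs of the cells summed in a library), and in the chosen cells the totals were adjusted by TMM, a scaling that balances most genes. Ccr2 stood at 187, 214 and 183 CPM in monocyte progenitors of the Mettl3KO libraries and at 147, 140 and 153 CPM in those of the WT libraries, against 22.9 to 36.2 CPM in the rest of LK over the 6 libraries. Ms4a6c, a membrane protein gene of the monocyte lineage, had 649 to 811 CPM in the chosen cells and 111 to 145 CPM in the rest. The growth factor receptor Csf1r had 44.8 to 61.9 CPM in the chosen cells and 6.42 to 10.2 CPM in the rest. Cx3cr1, the fractalkine receptor of monocytes, had 45.8 to 61.9 CPM and 4.85 to 8.32 CPM in the rest. Ctss, a cathepsin of antigen-presenting cells, had 101 to 142 CPM against 24.0 to 59.3 CPM. All of these markers were higher in every library's chosen cells than in any library's remaining cells. Cd14, a co-receptor for bacterial lipopolysaccharide on mature monocytes, reached at most 6.89 CPM in the chosen cells and 3.89 CPM in the rest. The monocyte genes Ly6c2 and Lyz2 did not separate the chosen cells, since Ly6c2 had 759 to 1347 CPM there and 356 to 1123 CPM in the rest.

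**Figure D1:**
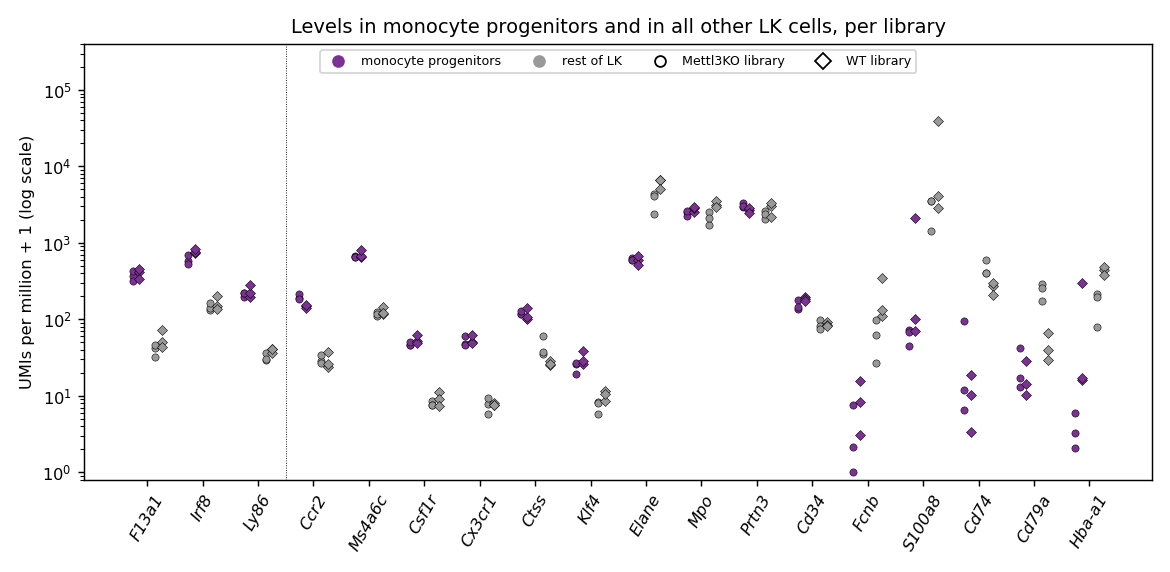
Levels of 18 marker genes in CPM plus 1 (log axis), 1 point per library, in monocyte progenitors (purple) and in all other LK cells (grey), with circles for Mettl3KO and diamonds for WT libraries. The 3 genes left of the dotted line chose the cells, as did the limit on Elane, and Ccr2, Ms4a6c, Csf1r, Cx3cr1 and Ctss lay above the rest in every library.

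Other genes were chosen after their values were seen. Those whose lowest level in the chosen cells lay above the highest in the rest included Ms4a4c (mean 56.3 against 8.40 CPM), Ms4a6b (112 against 25.8 CPM), Pld4, a lysosomal exonuclease (73.6 against 18.4 CPM), Emb, the adhesion molecule embigin (694 against 190 CPM), and Lgals1, the galectin-1 gene (3046 against 855 CPM). The proteases and the peroxidase of primary granules were still high. Mpo stood at 2241 to 2971 CPM in the chosen cells and 1706 to 3519 CPM in the rest. Prtn3, a serine protease of these granules, had 2482 to 3313 CPM against 2064 to 3289 CPM. Cd34, the sialomucin of early progenitors, had 137 to 197 CPM against 74.1 to 97.0 CPM. The markers of the later neutrophil path were low: Fcnb, the ficolin of neutrophil precursors, had 0 to 14.7 CPM in the chosen cells against 26.0 to 349 CPM in the rest. Cebpe, the transcription factor of secondary granules, averaged 4.58 CPM against 104 CPM. Markers of other lineages were also lower, with means of 23.3 against 361 CPM for Cd74 (the invariant chain of MHC class II), 11.4 against 154 CPM for Pf4 (a platelet chemokine) and 4.55 against 50.8 CPM for Gata1 (the erythroid transcription factor).

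Free RNA in droplets gives UMIs to cells that do not make a gene, so shares of cells with a UMI were set beside those in erythroid cells (at least 1 Klf1 and 3 Car1 UMIs) after each cell was thinned to 3000 UMIs. No monocyte progenitor was too shallow for this, while 3117 of the 3143 erythroid cells were deep enough. Ccr2 was seen in 38.9% of monocyte progenitors, against 8.76% of granulocyte comparison cells (Elane at least 15 per 10000, no Fcnb UMI, under 2 F13a1 UMIs), 7.77% of Mpo Cd34 comparison cells (Mpo at least 5 per 10000, at least 1 Cd34 UMI, Elane under 15 per 10000, under 2 F13a1 UMIs, low MHC class II) and 0.610% of erythroid cells. Csf1r was seen in 13.6% of monocyte progenitors, 3.05% and 3.11% of the same comparison cells, and 0.128% of erythroid cells. Flt3, a receptor of early and dendritic progenitors, was seen in 10.3% of monocyte progenitors, 0.582% of granulocyte comparison cells, 11.4% of Mpo Cd34 comparison cells and 0.128% of erythroid cells. S100a8, an abundant neutrophil protein, was seen in 33.8% of monocyte progenitors and 37.4% of erythroid cells. In WT replicate 3 these shares were 98.6% and 90.4%. Over the other libraries they were 9.52% to 31.8% and 9.48% to 26.8%. The part of free RNA in the S100a8 UMIs of monocyte progenitors was not tested. Without thinning, Ccr2 was seen in 75.6% of monocyte progenitors (median 10981 UMIs per cell) and 2.07% of erythroid cells (median 16559 UMIs), and S100a8 in 64.0% and 76.0%.

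Single cells ranged widely. Thinned to 3000 UMIs, the sum of Mpo, Prtn3, Ctsg, Cd34 and Kit had a median of 21 UMIs per cell (1 to 51), and the sum of 8 monocyte genes (Ccr2, Ms4a6c, Csf1r, Cx3cr1, Klf4, Ctss, Ms4a4c and Ms4a6b) a median of 4 UMIs (0 to 14). Among the 447 cells, 23 had none of the 8 monocyte genes and 0 had none of the early genes. The Spearman correlation of both sums over cells was -0.125, with -0.369 to 0.083 within single libraries. The cells of a library share its free RNA, and both sums were drawn from the same 3000 UMIs. Cells on both sides of the limits had similar values. Cells with exactly 2 F13a1 UMIs (100 cells, just inside) had 124 CPM of Ccr2 and 617 CPM of Ms4a6c, and the 135 otherwise qualifying cells with 1 F13a1 UMI (just outside) had 162 and 618 CPM. On the Elane side, 1582 cells passed the 3 gene thresholds but lay at or above the Elane limit, and 2 exceeded the MHC class II limit. The 86 chosen cells at 10 to under 15 Elane UMIs per 10000 had 174 CPM of Ccr2 and 3464 CPM of Mpo, and the 91 cells at 15 to under 20 had 150.5 CPM of Ccr2 and 3484 CPM of Mpo. The 27 chosen cells with no Elane UMI had 149.8 CPM of Ccr2, 1668 CPM of Mpo and 237 CPM of Cd34.

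Depth and 2 libraries bear on what follows. Monocyte progenitors held a median of 12682, 13564 and 10931 UMIs per cell in the Mettl3KO libraries, against 10577, 11679 and 7815 in the WT libraries, and 602676 to 1011413 UMIs per library in sum. WT replicate 3 was the shallowest and stood apart in neutrophil RNA: the rest of its LK cells had 39600 CPM of S100a8, against 1445 to 4081 CPM in the 5 other libraries. WT replicate 2 held 249 of the 274 Hba-a1 UMIs found in WT monocyte progenitors. Of all cells, 607 carried a barcode seen in more than 1 library, 18 monocyte progenitors among them, and 0 barcodes were shared between monocyte progenitors. Scrublet called 10 monocyte progenitors doublets (2, 1 and 0 in the Mettl3KO libraries, 2, 3 and 2 in the WT libraries). They were kept.

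Whether loss of Mettl3 changed the number of these cells was asked first. Monocyte progenitors made up 1.56%, 2.34% and 1.73% of LK cells in the Mettl3KO libraries, against 1.99%, 1.91% and 1.66% in the WT libraries. The genotypes overlapped, and the means were 1.88% ± 0.413 in Mettl3KO and 1.85% ± 0.172 in WT (SD, n = 3 each; exact two-sided permutation p = 0.9, where 0.1 is the smallest p that 3 against 3 allows). Wilson 95% intervals of single libraries, which cover counting error only, ran from 1.23% to 2.95% in Mettl3KO and from 1.32% to 2.44% in WT. The sign of the difference did not hold without Mettl3KO replicate 2 (log2 ratio -0.17, 0.02 with all libraries) or without WT replicate 3 (-0.05). When cells were thinned to 3000 UMIs before the rule was applied, 5, 3 and 20 cells in Mettl3KO and 20, 7 and 21 in WT met it, a log2 ratio of -0.89 (exact permutation p = 0.2). With the Elane limit left out, the cells made up 6.60% ± 0.470 of LK in Mettl3KO and 9.96% ± 2.96 in WT (log2 ratio -0.59, exact permutation p = 0.3).

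Against the granulocyte comparison cells, which made up 8.66%, 7.50% and 9.68% of LK in Mettl3KO and 16.1%, 14.3% and 11.02% in WT, the ratio of monocyte progenitors was higher in each Mettl3KO library. There were 18.0, 31.2 and 17.8 monocyte progenitors per 100 granulocyte comparison cells in the Mettl3KO libraries, against 12.3, 13.4 and 15.03 in the WT libraries. The genotypes did not overlap, with a log2 ratio of 0.72 and an exact permutation p of 0.1, the smallest possible. This ratio was computed after the cell numbers were seen. After thinning to 3000 UMIs its log2 value was -0.36 (exact permutation p = 0.7), and it was 0.40 without Mettl3KO replicate 2. For the thinned value both sets were chosen anew from thinned counts, so it does not compare the same cells. It set 5, 3 and 20 cells against 671, 372 and 814 in Mettl3KO, and 20, 7 and 21 against 1279, 944 and 742 in WT.

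The targeted gene was low in these cells in both genotypes. Mettl3 stood at 6.89, 10.7 and 15.2 CPM in Mettl3KO monocyte progenitors and at 17.2, 15.6 and 22.8 CPM in WT ones, 31 and 44 UMIs in all. Every Mettl3KO library lay below every WT library, yet the log2 fold change (Mettl3KO over WT) of -0.71 ± 0.35 (SE) did not pass edgeR's quasi-likelihood test (adjusted p = 0.51). Summed over all LK cells of the same libraries, Mettl3 fell by 0.75 ± 0.10 on the log2 scale (adjusted p = 0.00239, where 22.4% of 13071 genes were called). The labels do not say which exons were floxed, so this 3' count may not read the deletion itself.

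UMI counts of the monocyte progenitors were summed per library and tested with edgeR. Of 6316 genes tested, 21 changed at a Benjamini-Hochberg adjusted p under 0.05 (0.332%), 11 of them higher in Mettl3KO (0.174%) and 10 lower (0.158%), and 618 had an unadjusted p under 0.05. Unless another test is named, adjusted p values are from this test and log2 fold changes are Mettl3KO over WT with their SE. The genes that rose were Mt1, a metal-binding metallothionein, Trem3, a receptor of the TREM family on myeloid cells, Ms4a3, a multi-span membrane protein of granulocyte and monocyte progenitors, Tfrc, the transferrin receptor, Ifitm1, an interferon-induced membrane protein, Hp, the haemoglobin scavenger haptoglobin, the lysosomal proteases Ctsa, Ctsc and Ctsz, Sdf2l1, a co-chaperone of the endoplasmic reticulum, and Ncl, the nucleolar protein nucleolin. The genes that fell were the erythroid genes Hba-a1, Car1, Car2, Aqp1 and Hebp1, the neutrophil genes S100a8, S100a9, Camp and Ngp, and Oxct1, a mitochondrial enzyme that burns ketone bodies. With the 10 called doublets left out, 23 genes changed, 17 of the 21 among them. Of the 5 erythroid genes Car1 was still called (log2 fold change -1.98, adjusted p = 0.0218), Car2 was not (-0.81, adjusted p = 0.104), and Hba-a1, Aqp1 and Hebp1 no longer had enough counts to be tested. Among all genes tested, 14.9% did not overlap between the genotypes (7.36% higher and 7.49% lower in Mettl3KO), and 15 of the 21 did not.

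Mt1 (GRCm38 chromosome 8, 94179082 to 94180327, plus strand) had the smallest p. Its level was 355, 463 and 350.5 CPM in Mettl3KO monocyte progenitors, against 204, 138 and 97.7 CPM in WT ones. All Mettl3KO libraries lay above all WT libraries, and the log2 fold change was 1.38 ± 0.16 (adjusted p = 2.06e-05, n = 3 each, edgeR). No single cell held more than 13.6% of a Mettl3KO library's Mt1 UMIs. In the rest of LK Mt1 stood at 482, 588 and 566 CPM in Mettl3KO and 588, 615 and 485 CPM in WT, and the part of free Mt1 RNA in the result was not tested. Mt2, another metallothionein gene, looked up because of Mt1, had 40.2, 16.6 and 9.77 CPM in Mettl3KO and 9.12, 50.3 and 4.89 CPM in WT, a log2 fold change of -0.03 ± 0.49 (adjusted p = 0.992).

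Because metallothionein promoters are known for metal response elements, the promoters of the genes that rose were searched for their core, TGCACNC or TGCGCNC, on both strands. RefSeq promoter windows (GRCm38.p6, 250 bases before to 50 after the annotated start) were found for 9 of the 11 genes, and 3 of the 9 held the core, against 25.6% of 27025 promoters. Mt1 held 3 copies, a number reached by 2.00% of all promoters. The windows are chr8:94178839-94179138 (plus strand) for Mt1, chr16:17132334-17132633 (minus strand) for Sdf2l1 and chr16:32608646-32608945 (plus strand) for Tfrc, the first of 2 listed, printed 5' to 3' in the direction of the gene because they are the 3 that held the core. Capitals mark it, and in Tfrc 2 copies on opposite strands overlap.
Mt1: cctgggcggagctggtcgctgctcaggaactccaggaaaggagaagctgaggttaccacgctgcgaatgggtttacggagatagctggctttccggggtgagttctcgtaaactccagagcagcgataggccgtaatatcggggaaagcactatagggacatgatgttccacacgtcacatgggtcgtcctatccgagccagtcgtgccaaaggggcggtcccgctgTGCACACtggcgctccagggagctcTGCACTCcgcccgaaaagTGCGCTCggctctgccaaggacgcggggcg
Sdf2l1: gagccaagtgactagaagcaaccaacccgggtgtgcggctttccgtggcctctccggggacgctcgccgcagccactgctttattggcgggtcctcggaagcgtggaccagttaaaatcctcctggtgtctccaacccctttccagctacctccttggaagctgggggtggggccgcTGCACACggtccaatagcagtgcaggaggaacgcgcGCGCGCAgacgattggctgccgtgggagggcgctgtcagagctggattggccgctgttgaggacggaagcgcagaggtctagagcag
Tfrc: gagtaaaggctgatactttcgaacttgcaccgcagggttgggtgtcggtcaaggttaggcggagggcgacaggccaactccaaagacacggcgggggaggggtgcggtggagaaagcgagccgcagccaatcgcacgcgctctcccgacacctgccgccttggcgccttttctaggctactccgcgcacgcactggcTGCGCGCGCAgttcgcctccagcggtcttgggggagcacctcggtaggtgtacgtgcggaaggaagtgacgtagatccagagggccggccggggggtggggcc
The MYC E-box CACGTG (7.24% of all promoters), searched on both strands, was in none of the 9, which says only that those letters are not in these windows.

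**Figure D2:**
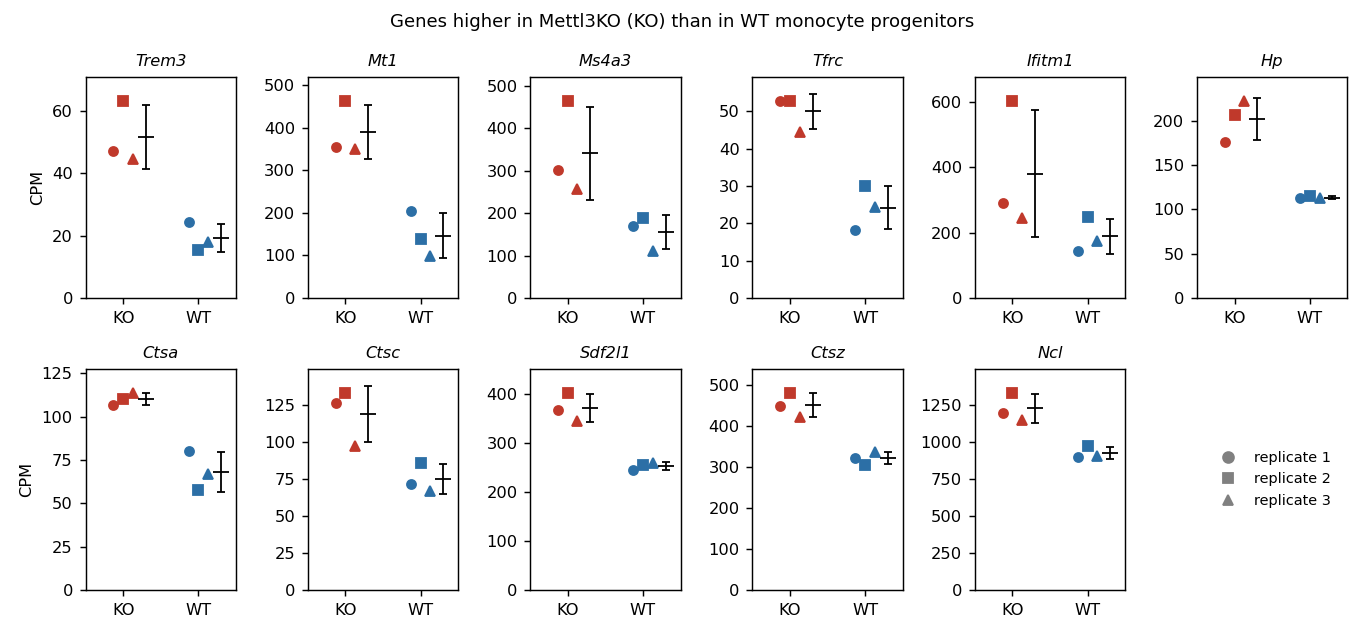
Levels in CPM (TMM-adjusted, linear axes from 0) of the 11 genes that rose, 1 point per library with a symbol for each replicate number, Mettl3KO (KO, red) left of WT (blue), and black bars for mean ± SD. The groups do not overlap for 10 of the genes, and Ifitm1 overlaps.

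Trem3 (chromosome 17, 48247777 to 48258841, plus strand) had 47.1, 63.3 and 44.5 CPM in Mettl3KO cells, against 24.3, 15.6 and 17.9 CPM in WT cells (log2 fold change 1.40 ± 0.24, adjusted p = 0.00471). Ms4a3 (chromosome 19, 11629496 to 11640851, minus strand) had 302, 465 and 256 CPM in Mettl3KO, against 169, 188 and 111 CPM in WT (1.11 ± 0.17, adjusted p = 0.000893). Hp (chromosome 8, 109575128 to 109579172, minus strand) had 176, 207 and 222 CPM in Mettl3KO, against 113, 115 and 112 CPM in WT (0.83 ± 0.13, adjusted p = 0.000893). For these 3 genes every Mettl3KO library lay above every WT library, and Hp varied by only 1.43 CPM (SD) among the WT libraries. Tfrc (chromosome 16, 32608920 to 32632794, plus strand), which takes up iron-loaded transferrin, had 52.8, 52.6 and 44.5 CPM in Mettl3KO and 18.2, 29.9 and 24.4 CPM in WT (1.06 ± 0.23, adjusted p = 0.0293).

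Ifitm1 (chromosome 7, 140967221 to 140969825, plus strand) had 292, 604 and 246 CPM in Mettl3KO monocyte progenitors and 143, 248 and 176 CPM in WT ones. Its groups overlapped, since Mettl3KO replicate 3 lay below WT replicate 2, and the log2 fold change was 1.02 ± 0.22 (adjusted p = 0.0291). The 3 cathepsins rose by less. Ctsa had 107, 110 and 114 CPM in Mettl3KO and 80.0, 57.5 and 66.8 CPM in WT (0.68 ± 0.15). Ctsc had 126, 133.5 and 97.7 CPM in Mettl3KO and 71.9, 86.2 and 66.8 CPM in WT (0.66 ± 0.15). Ctsz had 448, 480.3 and 421 CPM in Mettl3KO and 322, 305 and 336 CPM in WT (0.49 ± 0.10). In each of the 3 cathepsins the genotypes did not overlap, with adjusted p values of 0.0314, 0.0494 and 0.0249. Sdf2l1 had 367, 402 and 344 CPM in Mettl3KO and 244, 255 and 259 CPM in WT (0.56 ± 0.10, adjusted p = 0.011). Ncl had 1198, 1334 and 1150.0 CPM in Mettl3KO and 897, 972 and 907 CPM in WT (0.41 ± 0.09, adjusted p = 0.0314).

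Oxct1 (chromosome 15, 4026383 to 4155344, plus strand) was the gene outside the erythroid and neutrophil groups that fell. It had 42.5, 46.8 and 35.8 CPM in Mettl3KO monocyte progenitors, against 65.9, 76.6 and 76.6 CPM in WT ones, with no overlap (log2 fold change -0.79 ± 0.17, adjusted p = 0.0314). The call held without WT replicate 1 and was lost without any other single library (highest adjusted p 0.195).

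The other 9 genes that fell mark red cell and neutrophil development, and single cells held much of the signal in some libraries. Car1, a carbonic anhydrase of erythroid progenitors, had 33.3, 21.4 and 4.34 CPM in Mettl3KO and 48.6, 107 and 142 CPM in WT (log2 fold change -2.27 ± 0.34, adjusted p = 0.000893). One cell held 90.8% of the Car1 UMIs of WT replicate 3, and another held 86.4% of those of Mettl3KO replicate 2. Hba-a1, an alpha globin, had 2.30, 4.87 and 1.09 CPM in Mettl3KO and 15.2, 298 and 16.3 CPM in WT (-5.24 ± 0.95, adjusted p = 0.00823). A single cell held 47.0% of the UMIs behind the 298 CPM of WT replicate 2. The Hba-a1 call was lost without that library and without any single Mettl3KO library (adjusted p from 2.68e-69 to 0.336 over its alternatives), and without the called doublets Hba-a1 was not tested. Of the 12 listed erythroid genes 5 were tested and 3 fell, where 0.158% of all genes tested fell. The summed level of the 12 was 86.8 to 198 CPM in Mettl3KO and 219 to 1309 CPM in WT. In the rest of LK the same mice had 187, 293 and 252 CPM of Car1 in Mettl3KO and 688, 1005 and 1057 CPM in WT, with the same direction as in the monocyte progenitors. The part of this erythroid RNA in the result was not tested.

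S100a8 had 72.3, 66.2 and 43.4 CPM in Mettl3KO monocyte progenitors and 101, 69.4 and 2100.0 CPM in WT ones (log2 fold change -3.59 ± 0.71, adjusted p = 0.0208). WT replicate 3 alone was high, and 1 of its 72 cells held 62.7% of the S100a8 UMIs. S100a9 (-3.92 ± 0.80), Camp (-4.43 ± 0.94) and Ngp (-4.44 ± 0.97) had the same shape, with 63.4%, 63.0% and 66.5% of the UMIs of WT replicate 3 in 1 cell. All 4 calls were lost without WT replicate 3 and also without any single Mettl3KO library. Of the 14 listed granulocyte genes 7 were tested, 4 fell and 0 rose, where 0.158% of all genes tested fell and 0.174% rose. Their summed level was 4789 to 5350 CPM in Mettl3KO and 4542 to 9356 CPM in WT, and that range overlaps.

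**Figure D3:**
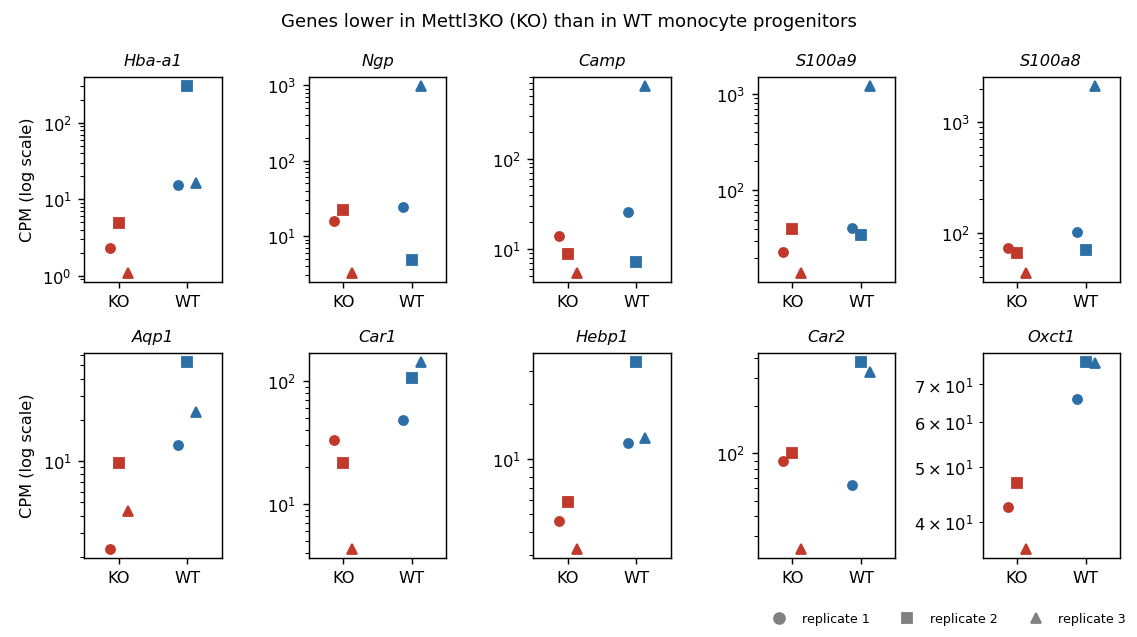
Levels in CPM (TMM-adjusted, log axes) of the 10 genes that fell, 1 point per library with a symbol for each replicate number, Mettl3KO (KO, red) left of WT (blue). Ngp, Camp, S100a9 and S100a8 were high in WT replicate 3 alone, Hba-a1 was highest in WT replicate 2, and Oxct1 separated the genotypes within a narrow range.

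The number of calls and their direction changed with single libraries and with the rule. Without Mettl3KO replicate 2 Mt1 was the 1 gene called (adjusted p = 0.024), and without Mettl3KO replicate 1 there were 5 (Car1, Hp, Ms4a3, Mt1 and Trem3). The count was 15 without Mettl3KO replicate 3 (11 of the 21 among them), 32 without WT replicate 1 (16; 9 higher and 23 lower in all), 16 without WT replicate 2 (13) and 31 without WT replicate 3 (15). Mt1 was called with each library left out in turn. Where the rule was applied after thinning to 3000 UMIs, 3 genes were called (3 higher and 0 lower), Ifitm1 was the 1 of the 21 among them, and Mt1 had 0.59 (adjusted p = 0.808). With at least 3 F13a1 UMIs required (347 cells) 5 genes were called, 5 higher and 0 lower, with Hp, Ms4a3, Mt1 and Trem3 of the 21 among them. DESeq2 called 8 genes, 8 higher and 0 lower, with Ctsz, Hp, Mt1, Ncl and Sdf2l1 of the 21 among them. None of the 10 lower calls was made under these 3 alternatives, but many of these genes had no test there. After thinning none of the 10 was among the 1611 genes tested. Car2 alone of the 10 was among the 918 genes that DESeq2 gave an adjusted p. Hba-a1, Aqp1 and Hebp1 were not tested with at least 3 F13a1 UMIs. With the Elane limit left out (2028 cells), 50 genes changed, 8 of the 21 among them (Car1, Car2, Hba-a1, Ifitm1, Mt1, Ncl, Oxct1 and Tfrc), and the log2 fold change of Mt1 was 0.73 (adjusted p = 0.00667). Under that setting Hp (0.23, adjusted p = 0.351), Ms4a3 (0.24, adjusted p = 0.233) and Trem3 (0.44, adjusted p = 0.169) did not pass.

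Gene lists were read against all genes tested, whose median log2 fold change was -0.02, with 2985 of 6316 positive. Of all genes tested 0.174% rose and 0.158% fell, and 14.9% of single genes did not overlap between the genotypes. For summed levels of lists no such share was computed. Of 30 monocyte identity genes 27 were tested and 0 changed, with a median of 0.07 and 14 positive. Ccr2 had a log2 fold change of 0.41 ± 0.12 (adjusted p = 0.177), although its genotypes did not overlap. Ly6c2 had -0.15 ± 0.14 (adjusted p = 0.792), Cst3, a cysteine protease inhibitor, -0.23 ± 0.09 (0.433), and Ms4a6c -0.11 ± 0.09. The rule's own genes are given as values: Irf8 had 586, 534 and 690.1 CPM in Mettl3KO and 727, 749 and 842 CPM in WT, and F13a1 363, 312 and 431 CPM in Mettl3KO and 412, 338 and 455 CPM in WT. Over all LK cells, which the rule did not choose, Irf8 had a log2 fold change of -0.25 ± 0.13 (adjusted p = 0.222), F13a1 -0.46 ± 0.16 (0.076) and Ly86 -0.35 ± 0.11 (0.0531).

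Among 30 myeloid transcription factors (Irf8 not listed) 16 were tested and 0 changed, with a median of -0.18 and 3 positive. Their summed level was 1001 to 1106 CPM in Mettl3KO and 1150.0 to 1238 CPM in WT, with no overlap. Spi1, the master regulator PU.1, had a log2 fold change of -0.08 ± 0.11 (adjusted p = 0.887), and Zeb2, which acts in the monocyte and dendritic branch, -0.22 ± 0.12 (adjusted p = 0.604). Of the 15 early progenitor and granule genes tested 1 rose, Ms4a3, and 0 fell (median 0.05). Nkg7, a granule membrane protein of that list, had 127, 129 and 117 CPM in Mettl3KO and 102, 69.4 and 61.9 CPM in WT (0.64 ± 0.16, adjusted p = 0.0817).

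Of 31 tested MYC targets and ribosome biogenesis genes 2 rose (Ncl and Tfrc) and 0 fell, 28 were positive and the median was 0.20. The list summed to 12962, 14189 and 12275 CPM in Mettl3KO and 10702 to 11725 CPM in WT. None of the 20 oxidative phosphorylation genes passed the test (median 0.08, 17 positive, 13444 to 14480 CPM in sum in Mettl3KO, 12424 to 13067 CPM in WT), and none of 26 G1/S, 24 G2/M or 81 ribosomal protein genes (medians 0.01, -0.04 and 0.00) did. Of 15 tested genes of the unfolded protein and integrated stress response Sdf2l1 rose and 0 fell (median 0.08), and of 9 heat shock genes 0 passed (median 0.15).

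Of 12 tested interferon-stimulated genes 1 rose, Ifitm1, and 0 fell, with a median of 0.06 and 7 positive. The 6 RNA sensing genes tested (median -0.08) and the 5 IRG and GBP GTPases (median 0.18) held 0 that passed. Of 15 tested genes of MHC class I and the immunoproteasome 0 passed, 13 were positive and the median was 0.18. Their sum was 6206 to 6462 CPM in Mettl3KO and 5147 to 5981 CPM in WT. The class I heavy chain H2-D1 had a log2 fold change of 0.23 ± 0.10 (adjusted p = 0.462), and B2m, the light chain, 0.08 ± 0.09. The m6A writer complex (6 tested, median -0.05), m6A readers and erasers (10, median 0.03), p53 targets (8, 0.19), immediate early genes (10, -0.26), cytokine receptors and inhibitors of their signalling (13, -0.13), chemokines and their receptors (5, 0.11) and genes of microbial killing and scavenging (8, 0.15) held 0 that passed. With so few calls over the whole table, a p that misses the threshold does not show that these lists were alike in both genotypes.

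Of the markers of other cells, 0 of 7 tested B cell genes passed, with a median of 0.86 and 6 positive. Vpreb1, the surrogate light chain of the pre-B receptor, had 53.9, 77.9 and 27.1 CPM in Mettl3KO and 18.2, 14.4 and 45.6 CPM in WT (log2 fold change 1.15 ± 0.33, adjusted p = 0.173). Its level in the rest of LK was 272, 494 and 437 CPM in Mettl3KO and 99.8, 46.1 and 67.7 CPM in WT. Of the 5 dendritic genes tested (median -0.38), H2-DMa, a chaperone of MHC class II loading, had -0.38 ± 0.13 (adjusted p = 0.311). These 5, the 4 stem and multipotent genes (0.53) and 2 basophil and mast cell genes (-0.61) held 0 that passed. No gene of the megakaryocyte, macrophage or T and NK cell lists had enough counts to be tested. Nkg7, also a marker of T and NK cells, was counted with the early progenitor and granule genes. The T and NK cell list summed to 6.51 to 10.3 CPM in Mettl3KO and 1.20 to 6.52 CPM in WT, with Cd3e, Cd3g and Gzma at 0. Macrophage genes summed to 2.17 to 9.74 CPM in Mettl3KO and 5.98 to 14.2 CPM in WT, with Mertk, Cd5l and Fabp4 at 0, and megakaryocyte genes to 6.82 to 20.7 CPM in Mettl3KO and 10.8 to 78.0 CPM in WT.

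**Figure D4:**
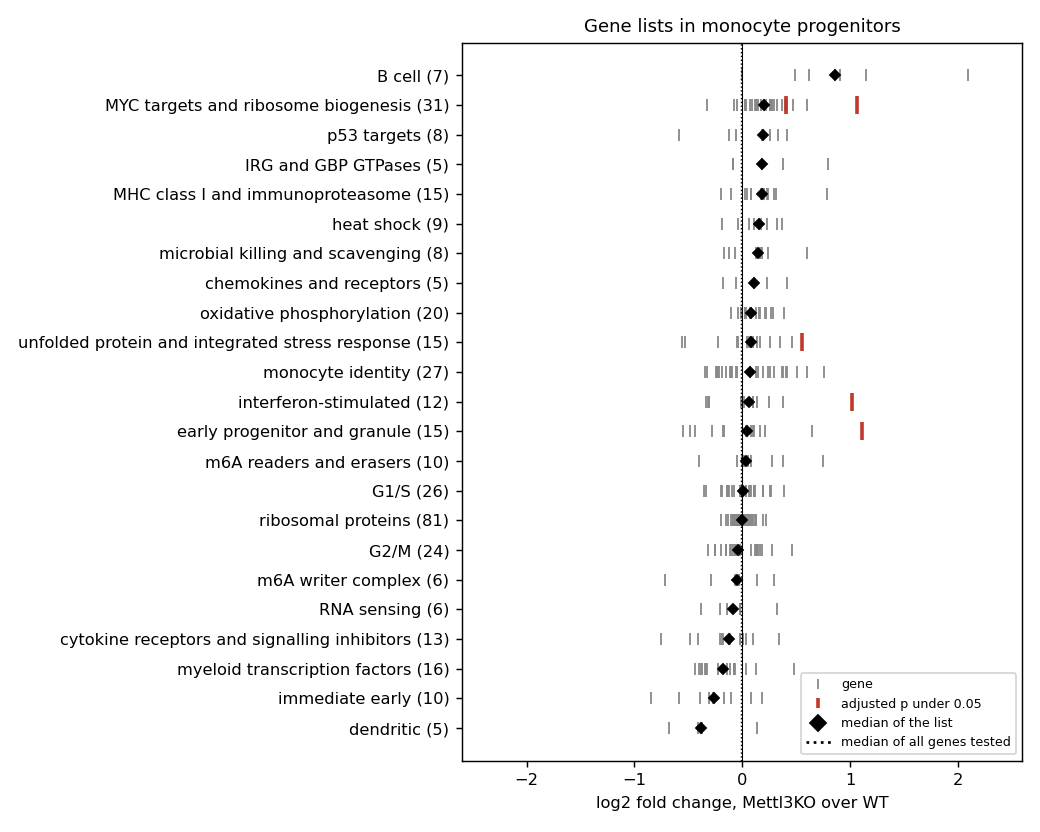
Log2 fold change (Mettl3KO over WT) of each tested gene (grey ticks, red at an adjusted p under 0.05) in the lists with at least 5 genes tested, and the median of each list (black diamonds), with the number tested in parentheses. The granulocyte and erythroid lists are left out of the plot, and medians run from -0.38 for dendritic genes to 0.86 for B cell genes around -0.02 for all genes (dotted line).

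Whether the changes were particular to monocyte progenitors was tested by the difference of the Mettl3KO effect between sets of cells from the same 6 libraries (edgeR, library as a block, rule genes left out). Against the Mpo Cd34 comparison cells (1491 cells), the difference passed for 17 of 8026 genes (0.212%), 4 with a higher (0.0498%) and 13 with a lower effect (0.162%) in monocyte progenitors. Mt1, Trem3, Ms4a3 and Hp were not among them. Mt1 rose by 2.09 ± 0.16 (log2) in the Mpo Cd34 cells (adjusted p = 2.69e-07), Ms4a3 by 1.29 ± 0.13, Hp by 1.23 ± 0.18 and Trem3 by 1.18 ± 0.23. Of the 21 genes changed in monocyte progenitors, 16 also changed in the Mpo Cd34 cells, all 16 in the same direction, where 5.97% of 8620 genes were called. The 16 include the erythroid genes Car1, Car2 and Hba-a1 and the neutrophil genes S100a8, S100a9, Camp and Ngp. Both sets of cells share the free RNA of their libraries, and its part in these 16 was not tested. The Mpo Cd34 cells, which could hold 1 F13a1 UMI, made up 4.79%, 4.41% and 3.97% of LK in Mettl3KO and 7.52%, 9.53% and 6.74% in WT. Ccr2 rose in them by 1.30 ± 0.25 (log2, adjusted p = 0.00456). The part of a differing make-up of this set in these 16 was not tested. Genes with a lower effect in monocyte progenitors included Lgals1 (log2 difference -0.60 ± 0.07, adjusted p = 7.77e-06), Prtn3 (-0.28 ± 0.05, 0.00318) and Ms4a6c (-0.46 ± 0.09, 0.0226), of which Lgals1 and Prtn3 rose in the Mpo Cd34 cells. A higher effect was found for Malat1, a nuclear long noncoding RNA (0.29 ± 0.04, adjusted p = 0.000837), and Lyz2, lysozyme (0.70 ± 0.12, 0.00712). Malat1 fell in the Mpo Cd34 cells (-0.66 ± 0.09, adjusted p = 0.000703) and had -0.39 ± 0.11 in monocyte progenitors (0.178). Lyz2 fell in the Mpo Cd34 cells (-0.43 ± 0.12, 0.0429) and had 0.24 ± 0.18 in monocyte progenitors (0.734). The effect was also higher for Ifitm1 (0.52 ± 0.10, 0.011) and Jchain, the joining chain of antibodies (4.73 ± 1.02, 0.0409). In Mettl3KO replicate 1, 1 of the 66 cells held 99.3% of the Jchain UMIs. DESeq2 called 0 genes in this comparison, with 108 at an unadjusted p under 0.05 against 650 by edgeR. Of 9 alternatives, the call of Ms4a6c was lost in 5, that of Ifitm1 in 4, and those of Lyz2 and Jchain in 3 each. The calls of Malat1, Lgals1 and Prtn3 were lost with DESeq2 alone.

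Against the granulocyte comparison cells (2762 cells) the difference passed for 13 of 8973 genes (0.145%), 8 higher (0.0892%) and 5 lower (0.0557%). The higher ones included Ms4a3 (log2 difference 0.97 ± 0.15, adjusted p = 0.00349), Mt1 (0.78 ± 0.13, 0.0053), Hp (0.67 ± 0.11, 0.00672), Trem3 (1.18 ± 0.22, 0.0147), Nkg7 (0.72 ± 0.14, 0.0253) and Sdf2l1 (0.37 ± 0.08, 0.039). In the granulocyte comparison cells, where 0.707% of 9758 genes were called, Mt1 rose by 0.61 ± 0.10 (adjusted p = 0.0107) and Tfrc by 1.14 ± 0.13 (0.00158), while Ms4a3 had a log2 fold change of 0.15 ± 0.07 (0.388) and Hp 0.19 ± 0.07 (0.178). The lower ones were the neutrophil genes S100a9 (-4.54 ± 0.36), S100a8 (-3.51 ± 0.51), Ngp (-2.53 ± 0.41) and Lcn2 (-3.99 ± 0.76), and Hspa8, a constitutive heat shock protein (-0.27 ± 0.05, adjusted p = 0.0284). In the granulocyte comparison cells S100a9 had a log2 fold change of 0.86 ± 0.68 (adjusted p = 0.627) and S100a8 0.46 ± 0.39 (0.657). The calls of S100a9 and S100a8 within monocyte progenitors were lost without WT replicate 3. In the test of the difference the calls of Ngp, Lcn2, Trem3 and Nkg7 were lost without that library, and those of S100a9 and S100a8 were not. Leaving out Mettl3KO replicate 2 left 2 calls. Those of Ms4a3, Mt1, Hp, Trem3 and Nkg7 ended (Mt1 0.75, adjusted p = 0.0769), as did those of S100a8, Ngp, Lcn2 and Hspa8. Leaving out Mettl3KO replicate 3 left 7. DESeq2 called 0 genes, with 101 at an unadjusted p under 0.05 against 546 by edgeR.

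Against all other LK cells (23949 cells), 516 of 12231 genes passed (4.22%), 278 with a higher effect in monocyte progenitors (2.27%) and 238 with a lower one (1.95%). This set is a mixture whose make-up differed by genotype, with erythroid cells at 4.86%, 8.59% and 7.15% of LK in Mettl3KO and 17.9%, 22.7% and 16.9% in WT, and its part in these differences was not tested. Mt1 (log2 difference 1.55 ± 0.10), Ms4a3 (1.48 ± 0.11), Hp (1.60 ± 0.13), Trem3 (2.09 ± 0.21) and Nkg7 (1.24 ± 0.13) had a higher effect in monocyte progenitors, with adjusted p values from 3.03e-34 to 1.17e-16. In the rest of LK, where 22.8% of 13026 genes were called, Mt1 had a log2 fold change that did not pass (-0.15 ± 0.11, adjusted p = 0.371), while Ms4a3 (-0.36 ± 0.10, 0.0334) and Trem3 (-0.73 ± 0.20, 0.0334) fell. Ifitm1 rose by 1.27 ± 0.19 in the rest of LK (adjusted p = 0.00296), Ncl by 0.32 ± 0.08 (0.0194), and their differences did not pass (adjusted p = 0.148 and 0.545). Lower effects in monocyte progenitors were found for Tpm4, a tropomyosin (-1.33 ± 0.11), Crip1, a small LIM protein (-0.89 ± 0.09), Fam212a (-1.92 ± 0.20), Cd79b, a chain of the B cell receptor (-1.53 ± 0.17), and Ifi27l2a, an interferon-stimulated gene (-2.07 ± 0.23). Each of these 5 rose in the rest of LK, and their log2 fold changes in monocyte progenitors were -0.11 to 0.18 for the first 3, near 0 for Cd79b and -0.32 for Ifi27l2a.

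**Figure D5:**
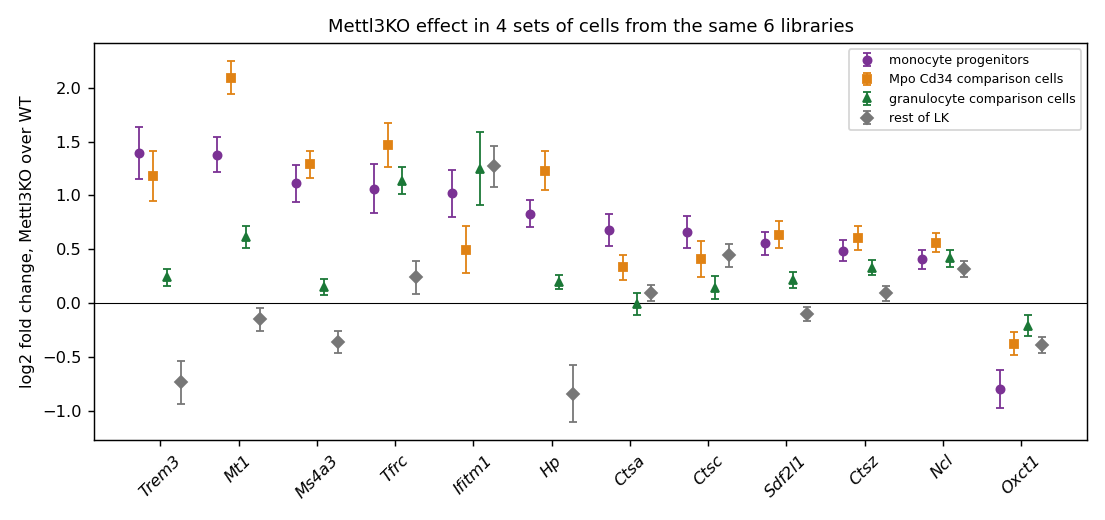
Log2 fold change (Mettl3KO over WT) with SE of the 11 genes that rose and Oxct1 in monocyte progenitors (purple circles), Mpo Cd34 comparison cells (orange squares), granulocyte comparison cells (green triangles) and the rest of LK (grey diamonds), all from the same 6 libraries. Mt1, Ms4a3, Hp and Trem3 stood between 0.83 and 2.09 in the first and the second set and between -0.84 and 0.61 in the third and the fourth.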

How the data were processed

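Counts of UMIs per gene and cell were deposited by the authors as 1 table of 24693 cells and 27933 genes from 6 libraries; they are raw counts by their values. The submitters' processing notes name Cell Ranger 2.2, Bowtie and TopHat and the builds mm10 and GRCh37, without roles. A bulk table was not used here. Members and gene lists were chosen with earlier results of these data known. Cells with over 10% mitochondrial UMIs were left out, and doublets (Scrublet in scanpy 1.11.5) were kept. UMIs of the chosen cells were summed per library and tested with edgeR 4.0.16 (R 4.3.3; filterByExpr, TMM, quasi-likelihood test, Benjamini-Hochberg adjusted p under 0.05). The rule's genes (F13a1, Irf8, Ly86, 3 MHC class II genes, Elane) and mitochondrial genes stayed in the totals and out of the tests. Differences between sets of cells were fitted over 12 sums with the library as a block. The scripts were tested on simulated data. Libraries came from different mice, 3 per genotype. Shares were compared by exact two-sided permutation tests. Named genes were Mettl3, the markers, up to 12 genes in each direction that changed without overlap and with at least 20 CPM in a genotype, up to 3 per list, up to 5 per direction of each difference, and all of a count of 5 or fewer; genes named beside these were chosen after their values were seen. Alternatives were RLE scaling, no filter, DESeq2 1.42.0, each library left out, a replicate block, doublets left out, stricter or thinned rules and no Elane limit.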

Additional observations from a re-analysis of the deposited data

Results flagged for a closer look

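For the genes below the Mettl3KO effect in monocyte progenitors differed from that in other LK cells of the same libraries by edgeR's test. Each was picked out at an adjusted p under 0.05 and is given as a log2 difference, monocyte progenitors minus the other cells. Against the rest of LK the differences were 1.5528 for Mt1, 1.4833 for Ms4a3, 1.6002 for Hp, 1.2381 for Nkg7 and 2.0939 for Trem3. They were -1.3307 for Tpm4, -0.8899 for Crip1, -1.9242 for Fam212a, -1.5317 for Cd79b and -2.067 for Ifi27l2a.

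Against the granulocyte comparison cells they were 0.9689 for Ms4a3, 0.7803 for Mt1, 0.6665 for Hp, 1.1829 for Trem3 and 0.7249 for Nkg7. They were -4.5391 for S100a9, -3.5059 for S100a8, -2.5276 for Ngp, -3.9886 for Lcn2 and -0.2727 for Hspa8. Against the Mpo Cd34 comparison cells they were 0.2932 for Malat1, 0.6981 for Lyz2, 0.5173 for Ifitm1 and 4.726 for Jchain. They were -0.6042 for Lgals1, -0.2815 for Prtn3, -0.1796 for Rpl41, a ribosomal protein, -0.4642 for Ms4a6c and -0.5112 for Cd48, an adhesion receptor of blood cells. DESeq2 called 0 genes against the granulocyte and against the Mpo Cd34 comparison cells. Malat1 and Lyz2 fell in the Mpo Cd34 comparison cells. A single cell held 99.3% of the Jchain UMIs of Mettl3KO replicate 1. The calls of Ngp and Lcn2 were lost without WT replicate 3. That of S100a8 was lost without Mettl3KO replicate 2. The part of free RNA in the S100a8 UMIs of monocyte progenitors was not tested.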

How the results depend on the processing

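Of the 21 genes changed in monocyte progenitors, 21 were also called with RLE scaling. The count was 73 with no filter on low counts, 23 with doublets left out (17 of the 21 among them), 8 with DESeq2 (of 918 genes given an adjusted p; 5 of the 21, 0 lower), 5 with at least 3 F13a1 UMIs (4 of the 21, 0 lower), 3 with the rule applied after thinning (1 of the 21, 0 lower), 50 with the Elane limit left out (added after the data were seen), and 1 to 32 with a library left out. Most of the genes that fell had no adjusted p with DESeq2 or after thinning. The difference from the rest of LK held 267 genes with DESeq2 and 346 to 438 with a library left out. From granulocyte comparison cells it held 44 with no filter, 0 with DESeq2 (101 at an unadjusted p under 0.05) and 2 to 15 with a library left out. From Mpo Cd34 comparison cells it held 45 with no filter, 0 with DESeq2 (108 unadjusted) and 5 to 23 with a library left out. The log2 ratio of the share of LK was -0.89 after thinning, -0.59 without the Elane limit, -0.17 without Mettl3KO replicate 2, -0.05 without WT replicate 3, and -0.17 to 0.14 over all libraries left out. Per 100 granulocyte comparison cells (a ratio added after the data were seen) it was -0.36 after thinning, with both sets chosen anew, and 0.40 to 0.86 with a library left out. The cause was not tested. Replicate numbers did not pair the samples (correlations of same-numbered deviations -0.006, 0.014 and -0.04), and with the replicate block 23 genes changed, 20 of the 21 among them, with p = 0.75 for the share and 0.25 for the ratio (exact permutation within pairs). Of 535 values for 51 gene results, 373 kept their call or lack of one, 162 lost their call and 0 changed sign. The 373 include 12 values of Mettl3, which was not called. Alternatives in which a gene got no adjusted p are not among the 535. The rule counts UMIs, so depth (7815 to 13564 UMIs per cell in the median) limits which cells it finds.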
